A study of Mus musculus with 21 samples.

Results

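Isolated distal regions that carry C/EBPα and ARID1A are stretches of hepatocyte chromatin at which C/EBPα was called in every library, a peak of V5-tagged ARID1A overlapped, no end of a protein-coding gene lay within 1 kb, and no second region of the same kind lay within 50 kb. Of 27244 regions made by merging the 4 C/EBPα peak lists, 11664 (42.8%) had a peak in every list and 1655 (6.07%) met the whole rule, which is 50.3% of the 3290 distal regions shared by both proteins. The other 1635 had such a neighbour within 50 kb and are called clustered here. A further 6308 distal regions had C/EBPα in all 4 lists and no ARID1A peak. All material was perfused primary hepatocytes from postnatal day 90 mice on a mixed C57/B6 and 129 background, examined by chromatin immunoprecipitation and sequencing (ChIP-seq). KO mice were Arid1a Fl/Fl; Alb-cre, in which Cre recombinase is driven by the albumin promoter of hepatocytes, and WT mice were Arid1a Fl/Fl without Cre, so both genotypes carried the floxed alleles. C/EBPα was mapped in 2 KO and 2 WT libraries and dimethylation of lysine 4 of histone H3 (H3K4me2) in 3 KO and 3 WT libraries. ARID1A was mapped once, in a mouse of genotype V5-Arid1a, with no replicate. The choice of members used the presence of C/EBPα and ARID1A peaks, so their presence is no result. H3K4me2 took no part in it.

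C/EBPα is a basic leucine zipper transcription factor that binds DNA as a dimer and drives genes of the differentiated hepatocyte, many of them for glucose, lipid and plasma protein metabolism. ARID1A is a DNA-binding subunit of the BAF form of SWI/SNF, a complex that uses ATP to slide or evict nucleosomes and so opens enhancers to other factors. H3K4me2 is found on nucleosomes at promoters and at enhancers. Markers went with the labelled hepatocytes, most clearly in the list of plasma proteins. Of 32 genes for proteins that hepatocytes secrete into plasma, 27 had C/EBPα within 1 kb of an end in all 4 lists and 31 had H3K4me2 there in all 6. Of 18 Kupffer cell and leukocyte genes, 0 had C/EBPα in all 4 lists and 2 had H3K4me2 in all 6. For 13 stellate cell and fibroblast genes these counts were 0 and 2, for 13 endothelial genes 1 and 2, and for 12 neuronal genes 0 and 0. Other hepatocyte lists had fewer genes with C/EBPα. The counts were 5 and 15 of 16 bile acid genes, 7 and 17 of 18 urea cycle and amino acid genes, and 6 and 20 of 20 hepatocyte transcription factors. They were 2 and 4 of 15 fetal liver and biliary genes and 3 and 15 of 16 housekeeping genes. Of all protein-coding genes 9.72% had C/EBPα in all 4 lists and 51.0% H3K4me2 in all 6. The lists held 16178 and 17781 C/EBPα peaks in KO, 17733 and 23646 in WT, and 5726 ARID1A peaks. H3K4me2 replicate 3 of the KO stood apart, with 175797 peaks of median width 429 bp, against 24908 to 61246 peaks of 634 to 918 bp in the other 5 lists.

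Sequence could be read for those members that hold the annotated start of a RefSeq transcript, most of them long non-coding RNAs, since the rule kept only protein-coding gene ends away and the RefSeq windows also cover start sites other than the outermost. Windows of 300 bases (around a RefSeq gene start, GRCm38.p6) lay with at least 150 bases inside 33 members, 39 windows in all, of which 25 belonged to lncRNAs and 14 to protein-coding genes. The C/EBP half-site pair was searched as TTGCNNAA and its reverse complement TTNNGCAA on both strands. It was present in 17 of these 39 windows (43.6%), in 42.6% of 54 windows in clustered regions, in 33.2% of 235 windows in distal regions without ARID1A, and in 10.8% of all 32851 windows. Windows of the same member can overlap and share a match. Counted by member, 15 of the 33 had the letters in a window. Forkhead letters (TGTTTAC or GTAAACA) were present in 10.3% of the 39 windows and 3.65% of all, AP-1 letters (TGANTCA, its own reverse complement) in 12.8% and 7.81%, and HNF4 letters (CAAAGNCCA or TGGNCTTTG) in 2.56% and 1.98%. The AP-1 windows include overlapping windows of Gm36393 that lie in the same member and share a match. None of these strings contains another, and a match is only a string of letters. Below are 7 windows, 5 of which hold the C/EBP letters, in capitals, and 2 of which do not. They are read 5′ to 3′ along the transcript. Gm31583 starts within the member with the ninth widest ARID1A peak, nearest to Bcl6 (chr16:24090016-24090315, minus strand). Gm29924 starts in a member 164566 bp from Ppargc1a (chr5:51289281-51289580, minus strand). Gm39079 starts inside Acsm1 (chr7:119620282-119620581, minus strand), and Gm33459 starts far from Wdr72 with the letters present 2 times (chr9:74528637-74528936, minus strand). Gm35164 starts in a member nearest to Wnt5a (chr14:28649463-28649762, plus strand). Cyp2c39, a cytochrome P450 gene, has a window with forkhead letters only (chr19:39510572-39510871, plus strand), and Gm34991 has none of the 4 strings (chr13:46021048-46021347, plus strand).
Gm31583: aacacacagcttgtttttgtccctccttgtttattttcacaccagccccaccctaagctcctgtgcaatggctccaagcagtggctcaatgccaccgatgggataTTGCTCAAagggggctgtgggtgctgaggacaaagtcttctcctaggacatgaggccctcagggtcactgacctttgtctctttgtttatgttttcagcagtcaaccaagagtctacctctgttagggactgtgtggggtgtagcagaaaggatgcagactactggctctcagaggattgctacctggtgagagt
Gm29924: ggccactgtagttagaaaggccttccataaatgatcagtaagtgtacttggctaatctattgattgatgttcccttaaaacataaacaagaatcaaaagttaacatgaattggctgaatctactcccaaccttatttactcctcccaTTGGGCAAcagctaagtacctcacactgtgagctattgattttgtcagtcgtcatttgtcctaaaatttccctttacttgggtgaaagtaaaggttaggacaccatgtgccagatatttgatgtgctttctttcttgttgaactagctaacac
Gm39079: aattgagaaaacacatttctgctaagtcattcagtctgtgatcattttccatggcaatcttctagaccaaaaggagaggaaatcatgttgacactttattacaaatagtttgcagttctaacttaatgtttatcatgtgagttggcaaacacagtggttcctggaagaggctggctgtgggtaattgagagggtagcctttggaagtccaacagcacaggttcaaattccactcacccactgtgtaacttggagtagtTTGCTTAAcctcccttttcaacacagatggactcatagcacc
Gm33459: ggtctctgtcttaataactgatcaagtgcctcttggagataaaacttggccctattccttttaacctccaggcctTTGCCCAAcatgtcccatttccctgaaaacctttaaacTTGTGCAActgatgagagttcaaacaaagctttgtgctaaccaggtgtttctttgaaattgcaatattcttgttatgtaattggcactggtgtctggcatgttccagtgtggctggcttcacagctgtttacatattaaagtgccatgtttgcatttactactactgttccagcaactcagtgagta
Gm35164: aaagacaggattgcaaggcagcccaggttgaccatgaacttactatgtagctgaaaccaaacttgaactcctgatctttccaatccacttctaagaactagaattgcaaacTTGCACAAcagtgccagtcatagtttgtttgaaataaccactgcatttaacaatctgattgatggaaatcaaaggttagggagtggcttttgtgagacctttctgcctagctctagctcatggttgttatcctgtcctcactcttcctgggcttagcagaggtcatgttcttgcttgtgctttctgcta
Cyp2c39: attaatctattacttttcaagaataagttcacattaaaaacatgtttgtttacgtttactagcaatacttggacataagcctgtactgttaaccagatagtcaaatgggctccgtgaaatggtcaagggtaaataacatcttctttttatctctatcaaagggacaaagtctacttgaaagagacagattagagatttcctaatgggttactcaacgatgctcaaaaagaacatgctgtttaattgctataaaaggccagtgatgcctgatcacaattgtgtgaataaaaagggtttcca
Gm34991: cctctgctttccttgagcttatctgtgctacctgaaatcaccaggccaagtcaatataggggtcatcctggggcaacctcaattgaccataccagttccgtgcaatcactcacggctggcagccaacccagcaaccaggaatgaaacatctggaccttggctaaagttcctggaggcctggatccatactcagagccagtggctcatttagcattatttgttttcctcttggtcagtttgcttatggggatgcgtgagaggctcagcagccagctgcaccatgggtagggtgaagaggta

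Members of this printed set differed in their peaks. The member at the Gm31583 start had C/EBPα peaks of 909 and 786 bp in KO and 902 and 1018 bp in WT, an ARID1A peak of 739 bp, and H3K4me2 in all 6 lists. The member at the Gm35164 start, toward Wnt5a, had 306 and 282 bp in KO, against 396 and 753 bp in WT, with H3K4me2 in 1 KO list and all 3 WT lists. The member at the Gm34991 start, nearest to Atxn1, had 384 and 409 bp in KO, against 628 and 592 bp in WT. KO widths lay below WT widths at both of these members, of which only the first holds the C/EBP letters in its window. The Gm39079 member had 649 and 1159 bp in KO, against 539 and 538 bp in WT, and H3K4me2 in all 6 lists.

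Isolated members were scattered through and between genes. The merged regions had a median width of 566 bp (306 to 2489), and 959 (57.9%) lay inside a protein-coding gene, compared with 56.2% of clustered regions. The median distance to the nearest gene end was 18154 bp in isolated and 19396 bp in clustered regions. Members within 5 kb of a gene end numbered 337 (20.4%, against 16.6% of clustered regions), those at 5 to 50 kb 838 (50.6%, against 59.6%), and those beyond 50 kb 480 (29.0%, against 23.7%). The gap to the next shared distal region had a median of 223190 bp and exceeded 1 Mb for 174 members. The loneliest member, nearest to Acsl4, the gene of a long-chain acyl-CoA synthetase, on chromosome X (142506929 to 142507361), had a gap of 26567647 bp, and those nearest to Cdh26, Fut9, Hpgd and Stxbp6 had gaps of 4651509 to 5537535 bp. On chromosome X 22 of 27 shared distal regions (81.5%) were isolated, and on chromosome 19 56 of 158 (35.4%). Members just inside the limits were the pair within Slc16a7, a monocarboxylate transporter gene, 50129 bp apart, and those 1009 bp from Gm5142 and 1011 bp from Prkch. Regions just outside were those at Nubpl, with a gap of 49502 bp, at Tent5c, 991 bp from a gene end, and at Nnmt, 989 bp from one.

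The rule asked for an ARID1A peak that overlapped the C/EBPα region, which by itself limits how far apart their midpoints can lie. The distances are thus only a description. The midpoint of the ARID1A peak lay a median of 38.5 and 39.5 bp from that of the C/EBPα peak in the KO lists and 36 and 38.5 bp in the WT lists, and 1501 members (90.7%) held the whole ARID1A peak. In clustered regions the distances were 42.5 and 44 bp in KO and 38 and 40.5 bp in WT, and 90.5% held the whole peak. At isolated members the C/EBPα midpoint of KO and WT differed by a median of 19 bp, and by no more than 100 bp in 1568 members (94.7%). ARID1A peaks were 307 bp wide at the median in isolated members and 325 bp in clustered regions. The widest was 1539 bp, 2597 bp from 1600014C10Rik (chromosome 7, 38200165 to 38200689). The next were 1026 bp near Kpna2, an importin of nuclear import, 995 bp in Gm44812, 841 bp in Tnfrsf8, the gene of the CD30 receptor, and 838 bp in Pag1, a membrane adaptor gene. Those at A930033H14Rik, Tsc22d2, Oma1, Bcl6 and Gfod1 measured 726 to 822 bp. On the percentile scale, at none of the 10 members were both KO lists above both WT lists in C/EBPα width, and at 4 both were below, beside 10.9% and 33.8% of all isolated members. In base pairs both were above at 2 and below at 0.

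A pair of microRNA genes with the same seed each had a member beside them. Mir103-1 lies in an intron of Pank3 and Mir107 in an intron of Pank1, both pantothenate kinase genes, whose enzymes start coenzyme A synthesis. Both microRNAs have been studied in mouse liver for their effect on insulin sensitivity. The mature strands, with bases 2 to 8 in capitals, were taken from RefSeq (GRCm38.p6) because they show the shared seed GCAGCAU.
mmu-miR-103-3p: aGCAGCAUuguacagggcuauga
mmu-miR-107-3p: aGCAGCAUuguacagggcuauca

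The member beside Mir103-1 (chromosome 11, 35783071 to 35783575) lay 590 bp from the hairpin and had an ARID1A peak of 504 bp. Its C/EBPα peaks were 505 and 399 bp in KO and 322 and 435 bp in WT, and H3K4me2 was present in 2 KO and all 3 WT lists. The member beside Mir107 (chromosome 19, 34819291 to 34820147) lay 540 bp from the hairpin, with an ARID1A peak of 536 bp, C/EBPα peaks of 818 and 822 bp in KO and 611 and 800 bp in WT, and H3K4me2 in all 6 lists. Members within 1 kb of a microRNA gene numbered 4, and these 2 were chosen after their values were seen. In all, 111 members (6.71%) lay within 1 kb of a non-coding gene end, 87 of them of lncRNAs.

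C/EBPα peak width was compared between genotypes as a description, since the members had to have a peak in every list. At 57 members (3.44%) a list had more than 1 peak in the region, and its widest peak was taken on both scales. The mean percentile of peak width within its own list was 62.8 and 64.9 at isolated members in KO, against 66.0 and 72.1 in WT. Both KO lists lay below both WT lists. The same held at distal regions without ARID1A, with 49.3 and 51.6 in KO and 51.9 and 57.6 in WT. At clustered regions the genotypes overlapped, with 68.6 and 71.2 in KO and 68.9 and 74.1 in WT. A percentile also depends on the other peaks of its list, and WT replicate 2 had the longest list, with 23646 peaks. The mean KO minus WT difference was -5.16 percentiles at isolated members, -1.63 at clustered regions and -4.28 at distal regions without ARID1A. Over all regions with a peak in all 4 lists it was -2.60. In base pairs the sign was the opposite. The KO lists as a whole held wider peaks, with medians of 421 and 396 bp, against 391 and 381 bp in the WT lists. Mean widths at isolated members were 533 and 521 bp in KO and 493 and 529.7 bp in WT, a KO minus WT difference of 15.3 bp at isolated members and 40.4 bp at clustered regions. These means in base pairs overlapped between genotypes. Both KO percentiles were below both WT percentiles at 559 members (33.8%), where 27.8% of all regions kept in 4 lists were, and above at 181 (10.9%, where 14.7% were). In base pairs both KO widths were below at 304 (18.4%, where 16% were) and above at 409 (24.7%, where 27.6% were). The percentile difference was -8.19 without WT replicate 1 and -2.13 without WT replicate 2.

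The members with the lowest KO percentiles relative to WT were also narrower in base pairs. The one nearest to Slc19a1, the reduced folate carrier gene (chromosome 10, 77024982 to 77025594), had 288 and 268 bp in KO, against 407 and 613 bp in WT. The one nearest to Celf2, an RNA-binding protein gene, had 287 and 270 bp in KO, against 443 and 484 bp in WT. That nearest to Lrch1 had 275 and 426 bp in KO, against 634 and 748 bp in WT. KO and WT widths did not overlap at any of these 3. The fifth, inside Cdk5rap1 and nearest to Bpifb9b, had 283 and 299 bp in KO, against 471 and 432 bp in WT. At the other end stood Smad6, which encodes an inhibitor of BMP signalling, with 832 and 928 bp in KO, against 295 and 507 bp in WT. Dennd4a had 435 and 614 bp in KO, against 311 and 311 bp in WT. A member inside Brca1, a DNA repair gene, had 918 and 634 bp in KO, against 336 and 415 bp in WT (chromosome 11, 101518834 to 101519751). Members inside Ergic2, nearest to Far2, and inside Hivep2 had KO widths of 724 and 667 bp and of 659 and 651 bp, against WT widths of 364 and 373 bp and of 382 and 373 bp.

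H3K4me2 was asked of the same members because the mark was not used to choose them. An H3K4me2 peak overlapped 46.0%, 84.3% and 59.9% of isolated members in the KO lists, against 76.5%, 91.5% and 67.8% in the WT lists. The mean was 63.4% ± 19.4 in KO and 78.6% ± 11.98 in WT (SD, n = 3 each), and the ranges overlapped. The difference of -15.2 points did not pass the exact permutation test over libraries (p = 0.3, adjusted p = 0.9 over 4 KO against WT comparisons), a design that allows no p below 0.1. It was -6.51 points without KO replicate 1, -25.6 without KO replicate 2, -8.74 without WT replicate 2, and -13.4 without KO replicate 3, the long list. With peaks at or above the pooled median −log10 q it was -28.5. The mean percentile of the highest peak over each marked member, ranked by −log10 q within its list, was 40.2, 57.1 and 67.3 in KO and 44.0, 61.6 and 51.0 in WT, a difference of 2.65 (exact permutation p = 0.8). The sign of that difference depended on single libraries, with -3.59 without KO replicate 3 and -1.45 without WT replicate 1. The labels do not say whether libraries came from separate animals, so p-values measure the spread between these samples, which may be technical.

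**Figure D1:**
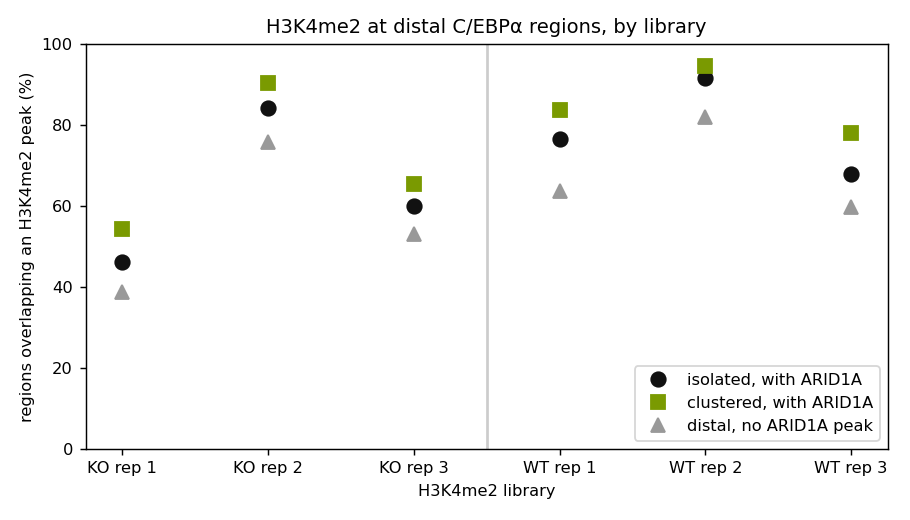
Share of regions (%, y axis) that overlap an H3K4me2 peak in each of the 6 libraries (x axis), for isolated, clustered and ARID1A-free distal regions with C/EBPα in all 4 lists. Each point is 1 library and 1 class, and isolated members (46.0% in KO replicate 1 to 91.5% in WT replicate 2) sit between the other classes in every library.

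Within a library the classes had a fixed order of marked shares. Clustered regions were marked in 54.3%, 90.4% and 65.4% of cases in KO and 83.6%, 94.6% and 78.1% in WT. The mean difference of isolated minus clustered was -6.73 points, and isolated members were lower in 6 of 6 libraries (exact sign-flip permutation p = 0.03125, adjusted p = 0.0417 over 4 within-library comparisons). Distal regions without ARID1A were marked in 38.6%, 75.9% and 53.1% of cases in KO and 63.7%, 81.9% and 59.7% in WT. Isolated members were 8.85 points above them, higher in 6 of 6 libraries (exact sign-flip permutation p = 0.03125, adjusted p = 0.0417). These p-values are the smallest that 6 libraries allow. C/EBPα widths moved with these shares. The merged regions were 566 bp wide at the median in isolated members, 602 bp in clustered regions and 486 bp in regions without ARID1A, and the part of width in the shares was not tested. A broad H3K4me2 peak can also cover a clustered region together with its neighbour, which the rule keeps away from isolated members. Gaps between clustered regions had a median of 11207 bp and a minimum of 20 bp. The part of such neighbours in the shares was not tested either. Where the mark was present, its mean percentile differed by -1.14 between isolated and clustered regions and was lower in isolated ones in 5 of 6 libraries, which did not pass the test (exact sign-flip permutation p = 0.1875, adjusted p = 0.1875). In regions without ARID1A this percentile was 45.0, 60.0 and 68.5 in KO and 49.5, 63.1 and 55.0 in WT. It lay above that of isolated members in every library, the reverse of the marked shares, and was not tested.

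The surroundings of isolated members were described next. From 1 kb to 25 kb on each side, H3K4me2 peaks covered 3.90%, 11.6% and 9.09% of the bases around isolated members in KO and 6.97%, 12.6% and 7.36% in WT. Around distal regions without ARID1A they covered 4.83%, 13.8% and 10.3% in KO and 8.52%, 14.9% and 8.76% in WT. These values lay above those of isolated members in every library and were not tested. Around clustered regions the peaks covered 6.84%, 20.2% and 13.9% in KO and 12.9%, 22.6% and 13.1% in WT. The mean of 8.58% ± 3.21 for isolated and 14.9% ± 5.65 for clustered regions (SD, n = 6 libraries) gave a difference of -6.34 points. It is given with no test, since clustered regions can have other shared regions in these flanks and isolated members have none by the rule. Between genotypes the flanks of isolated members differed by -0.79 points (exact permutation p = 0.9, adjusted p = 0.9), with overlapping ranges. The mark covered the centre of 31.6% (KO replicate 1) to 84.2% (WT replicate 2) of isolated members, 10.4% to 36.0% of positions at 1 kb and 5.02% to 15.9% at 5 kb in the same libraries.

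**Figure D2:**
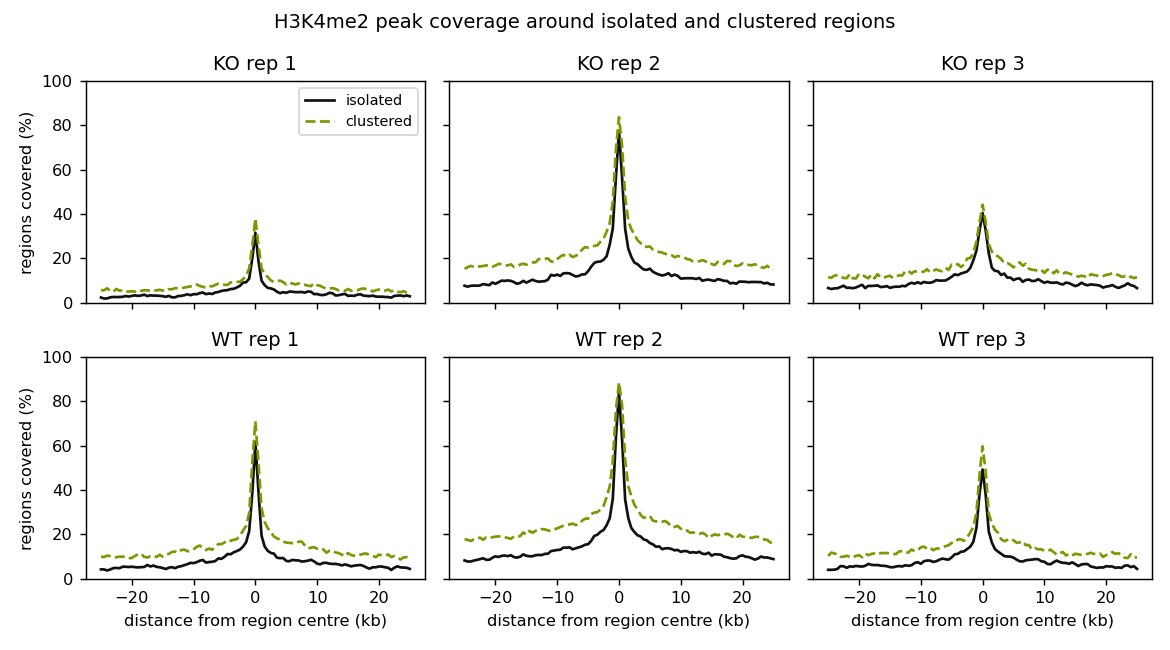
Share of regions (%, y axis) covered by an H3K4me2 peak at 500 bp steps from the region centre (x axis, kb), for isolated (solid) and clustered (dashed) regions, 1 panel per library with KO above WT. At 10 kb isolated regions are covered in 3.90% to 12.6% of cases, against 7.71% to 22.7% for clustered regions.

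Lists of H3K4me2 were counted per member. A peak was present in all 6 lists at 528 members (31.9%, where 26.7% of all merged regions were), and in none at 64 (3.87%, where 18% were, and 1.22% of clustered regions). More WT than KO lists were marked at 687 members (41.5%) and more KO than WT lists at 134 (8.10%), beside 43.0% and 7.52% of clustered regions and 35.0% and 8.60% of all merged regions. Loss of the mark in the strict sense, with all 3 WT lists marked and none of the KO lists, was found at 21 members (1.27%, where 1.25% were), a share near that of all regions. With 1 library left out, which loosens the criterion, the count was 146 without KO replicate 2, 36 without KO replicate 3, 35 without WT replicate 3 and 22 to 31 without each of the others. Gain, the reverse, was found at 0 members, where 0.00734% were.

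**Figure D3:**
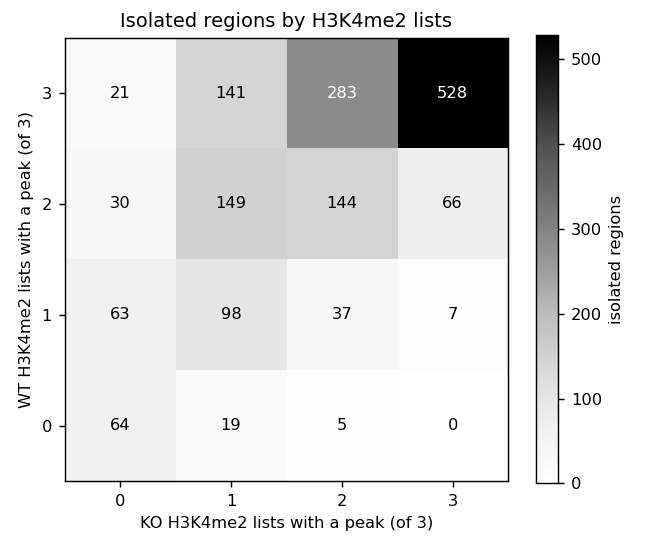
Number of isolated members (shade and digits) by how many of the 3 KO lists (x axis) and of the 3 WT lists (y axis) had an H3K4me2 peak. The corner with all 6 lists holds 528 members, 21 lie in the corner with WT lists only, and 0 in the corner with KO lists only.

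The 21 members with the mark in WT lists only are described by their nearest genes. At 12 of them both KO C/EBPα percentiles were below both WT ones and at 2 above, where 33.8% and 10.9% of all isolated members were. In base pairs both KO widths were below at 7 and above at 3, where 18.4% and 24.7% of all isolated members were. Among the 207 members with any 3 H3K4me2 lists marked, which include these 21, the percentile shares were 44.4% below and 7.25% above. The member with the highest mean H3K4me2 percentile over the 3 WT lists lay in Rfx6, a transcription factor gene of the endocrine pancreas and gut (chromosome 10, 51721798 to 51722305), with H3K4me2 percentiles of 55.6, 56.2 and 53.1 in WT. C/EBPα there was 478 and 404 bp wide in KO and 393 and 501 bp in WT, which overlap. The member beside Mpc1, a subunit of the mitochondrial pyruvate carrier, had 337 and 332 bp in KO, against 440 and 474 bp in WT (chromosome 17, 8299463 to 8299936). Beside Map3k1, a kinase of the JNK pathway, the widths were 439 and 323 bp in KO, against 495 and 965 bp in WT. In Abi3bp they were 365 and 317 bp in KO, against 451 and 434 bp in WT. The member in Reep3, nearest to the histone demethylase gene Jmjd1c, went the other way, with 665 and 622 bp in KO, against 489 and 499 bp in WT. A further pair of these members lay 77092 bp apart in the Cyp2 gene cluster of chromosome 7. The one nearest to Cyp2g1 had 460 and 383 bp in KO, against 477 and 541 bp in WT, and the one nearest to Cyp2a5, a xenobiotic-metabolising enzyme gene, had 355 and 345 bp in KO, against 272 and 304 bp in WT. Itgb2, near another, encodes a leukocyte integrin chain, and the remaining named ones were BC024139 and Ano2.

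C/EBPα width and H3K4me2 came from different libraries and varied together across members. At members with no H3K4me2 list the median C/EBPα width percentile was 48.8 and 48.2 in KO and 56.4 and 65.3 in WT. At members with all 6 lists it was 77.4 and 79.1 in KO and 77.7 and 82.4 in WT, so on the percentile scale the genotypes lay close together there. In base pairs the KO medians were 417 and 390 bp at members with no list and 554 and 544.5 bp at those with 6, and the WT medians were 409 and 433.5 bp and 491.5 and 534 bp. On that scale the genotypes overlapped at members with no list, and both KO medians lay above both WT medians at those with 6. The share of members with both KO percentiles below both WT ones was 50% (32 of 64) with no H3K4me2 list and 24.8% (131 of 528) with all 6. ARID1A width percentile followed the same order, with medians of 34.0 and 59.0, and the distance to a gene end ran the other way, with medians of 41080 and 11226 bp. These values describe the members and share region width, as wider regions can overlap a peak more easily. Merged width was 498 bp at members with no list and 660 bp at those with 6.

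**Figure D4:**
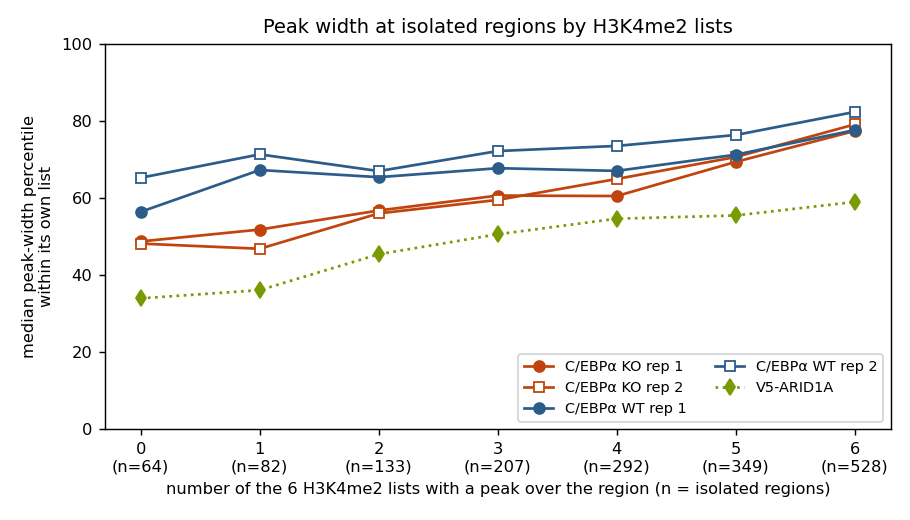
Median percentile of C/EBPα peak width in each KO and WT list, and of ARID1A peak width (y axis), for isolated members grouped by the number of H3K4me2 lists with a peak (x axis, n below each group). KO medians run from 48.2 or 48.8 with no list to 77.4 or 79.1 with 6, and WT medians from 56.4 or 65.3 to 77.7 or 82.4.

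H3K4me2 was then compared between members that the genotypes parted by C/EBPα width, a comparison chosen after the values were seen. Members with both KO percentiles below both WT ones were marked in 34.0%, 75.8% and 52.8% of cases in KO and 71.0%, 88.7% and 60.3% in WT. Members with both KO percentiles above were marked in 61.3%, 92.8% and 71.3% of cases in KO and 84.5%, 96.7% and 76.8% in WT. The mean difference was -16.8 points (SD 6.37, n = 6 libraries), -20.9 ± 5.60 in KO and -12.7 ± 4.34 in WT (SD, n = 3 each). It restates per library the counts by number of lists above, so it has no test. With sets parted by width in base pairs it was -24.3 points. The difference between genotypes was -8.28 points, and -2.22 with H3K4me2 lists cut to the shortest. Median merged width was 567 bp in both sets, and the distance to a gene end was 22233 bp in the first and 14159 bp in the second.

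**Figure D5:**
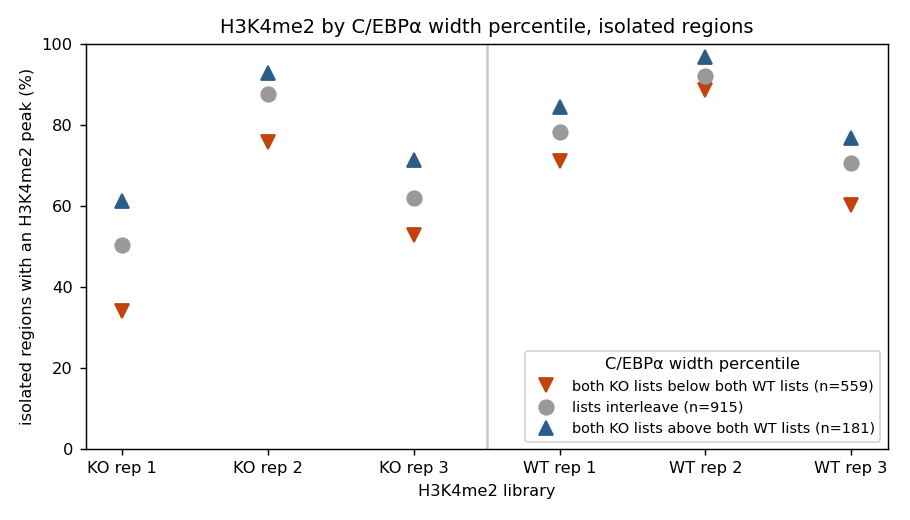
Share of isolated members (%, y axis) with an H3K4me2 peak in each library (x axis), split by whether both KO C/EBPα width percentiles lie below both WT ones (559 members), interleave (915) or lie above (181). The below set is lowest and the above set highest in all 6 libraries, from 34.0% and 61.3% in KO replicate 1 to 88.7% and 96.7% in WT replicate 2.

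The 1655 members had 1490 distinct nearest protein-coding genes, and 1353 of these genes had a single member. Of 21900 protein-coding genes 12.2% had an isolated member within 50 kb of a gene end and 5.74% a clustered region. Among 13 genes of gluconeogenesis and glycogen 7 had an isolated member and 3 a clustered region, and among 18 genes of fatty acid oxidation and ketogenesis 8 and 6. Among 16 bile acid genes 4 had an isolated member and 11 a clustered region, among 14 acute phase genes 3 and 8, and among 32 plasma protein genes 4 and 9. For 25 genes of the cell cycle and replication the counts were 7 and 2, and for 12 neuronal genes 0 and 0. Cell-surface and marker lists of other cell types had 3 of 13 (endothelial), 1 of 13 (stellate cell and fibroblast) and 1 of 18 (Kupffer cell and leukocyte) with an isolated member. The other lists had 8 of 24 (lipid and lipoprotein), 6 of 21 (cytochrome P450), 5 of 18 (urea cycle and amino acid), 5 of 20 (hepatocyte transcription factors), 4 of 21 (growth factor signalling), 3 of 19 (immediate early), 1 of 17 (clock), 2 of 22 (growth restraint), 3 of 21 (SWI/SNF subunits), 2 of 15 (fetal liver and biliary) and 3 of 16 (housekeeping).

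Among glucose genes, G6pc, the last enzyme of gluconeogenesis, had a member 4902 bp away (chromosome 11, 101362328 to 101362814). Its C/EBPα peaks were 453 and 464 bp in KO and 435 and 450 bp in WT, and H3K4me2 was present in all 6 lists. Gys2, liver glycogen synthase, held one of 335 and 430 bp in KO, against 427 and 438 bp in WT, with H3K4me2 in 1 KO list and all 3 WT lists. Ppp1r3b, which targets a phosphatase to glycogen, had one 25410 bp away, of 355 and 328 bp in KO, against 413 and 437 bp in WT. Pcx, pyruvate carboxylase, held one of 450 and 405 bp in KO and 425 and 441 bp in WT. KO widths in base pairs thus lay above WT widths at G6pc, below them at Ppp1r3b, and overlapped them at Gys2 and Pcx. On the percentile scale KO lay below WT at Ppp1r3b, Gys2 and Pcx. At G6pc the percentiles overlapped, with 58.9 and 66.7 in KO and 64.8 and 69.0 in WT. Ppargc1a, a coactivator of gluconeogenic genes, was nearest to 2 members.

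The next genes come from the lists of fatty acid oxidation and ketogenesis and of lipids and lipoproteins. Acadm, a beta-oxidation dehydrogenase, held the member closest to a gene end of any fixed list, 1156 bp away. It measured 451 and 321 bp in KO and 323 and 335 bp in WT, with H3K4me2 in all 6 lists. Hadhb, of the mitochondrial trifunctional protein, had one 3052 bp away, with H3K4me2 in 1 KO and 3 WT lists. Pdk4, which restrains pyruvate oxidation, had one of 676 and 568 bp in KO and 611 and 567 bp in WT. Bdh1, a ketone body enzyme, had one of 466 and 499 bp in KO, against 392 and 420 bp in WT, with no H3K4me2 peak in any list. Mttp, which loads lipid onto apolipoprotein B, also held one with no H3K4me2 peak, of 381 and 435 bp in KO and 527 and 425 bp in WT. C/EBPα in all 4 lists thus occurred at both without a called mark. Insig2, a brake on sterol synthesis, had a member of 675 and 651 bp in KO and 643 and 657 bp in WT, with an ARID1A peak of 548 bp. Hmgcs1, of cholesterol synthesis, held one with H3K4me2 in 3 KO and 2 WT lists, and Cyp4a10, an omega-hydroxylase gene, had one 3897 bp away.

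Among signalling genes, Igf1, the circulating growth factor made by liver, had a member 25826 bp away (chromosome 10, 87831984 to 87832439) with 318 and 344 bp in KO, against 432 and 437 bp in WT. Width percentiles there were 15.7 and 33.1 in KO and 63.9 and 66.1 in WT, and H3K4me2 was present in 1 KO list and all 3 WT lists. Igfbp4, a binding protein of that factor, held one of 353 and 361 bp in KO, against 301 and 327 bp in WT. Socs3, a feedback inhibitor of cytokine signalling, had one of 509 and 470 bp in KO, against 547 and 582 bp in WT. In base pairs the Igf1 and Socs3 members were narrower in both KO lists and Igfbp4 wider, while the Igfbp4 percentiles of 27.9 and 39.3 in KO and 10.9 and 28.7 in WT overlapped. Pik3r1, the regulatory subunit of PI3-kinase, was nearest to 5 members between 101373560 and 101916648 of chromosome 13, of which 1 lay inside the gene. Their KO minus WT width percentiles ran from -19.6 to 23.9. Adgrl2, an adhesion receptor gene, also had 5, and at 4 of them both KO percentiles were below both WT ones.

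Other fixed-list members were near Foxa3, Nr1h4, Agxt, Gls2, Trf, Apcs, Lbp, Bhlhe40, Cyp2f2, Rrm2, Mki67, Sox4 and B2m. Foxa3, a forkhead pioneer factor gene, held one of 379 and 399 bp in KO and 476 and 334 bp in WT, with H3K4me2 in all 6 lists. Nr1h4, the bile acid receptor FXR, held one of 510 and 482 bp in KO, against 348 and 462 bp in WT. Trf, the iron carrier transferrin, had one of 965 and 1084 bp in KO, against 510 and 549 bp in WT, with H3K4me2 in all 6 lists. Lbp, which binds bacterial lipopolysaccharide, had one of 284 and 283 bp in KO, against 340 and 334 bp in WT, with H3K4me2 in WT replicate 2 alone. Bhlhe40, a clock repressor, had one of 373 and 379 bp in KO, against 340 and 303 bp in WT. In base pairs the Nr1h4, Trf and Bhlhe40 members were wider in both KO lists and the Lbp member narrower. The Nr1h4 percentiles of 70.8 and 70.2 in KO and 31.5 and 71.5 in WT overlapped.

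The gene ends of the 1490 nearest genes had their own marks. C/EBPα was present in all 4 lists at 17.2% of them, beside 25.1% of the 776 nearest genes of clustered regions and 9.72% of all protein-coding genes. H3K4me2 was present in all 6 lists at 74.0%, beside 78.4% and 51.0%, and ARID1A at 5.57%, beside 9.66% and 2.23%.

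Isolated members were alone only among shared distal regions. Within 50 kb lay 4631 other merged C/EBPα regions, a median of 3 per member, and 207 members (12.5%) had none. A peak was present at 58.9% and 65.0% of these neighbours in KO, against 61.1% and 84.6% in WT. The means of 62.0% ± 4.34 in KO and 72.9% ± 16.7 in WT (SD, n = 2 each) differed by -10.9 points, within the spread of the WT lists (exact permutation p = 0.667, adjusted p = 0.9), in a design that allows no p below 0.333. Without WT replicate 2 the difference was 0.91 points. Neighbours with both WT lists and no KO list made up 10.3% of these, where 13.3% of all regions outside the shared distal ones were, and 15.2% of those farther off. The reverse made up 2.96%, where 3.13% were. Among neighbours of clustered regions, 7.89% had both WT lists and no KO list and 3.78% the reverse. Members with at least 1 lost neighbour numbered 389 (23.5%), beside 462 clustered regions (28.3%), and 80 members had a shared region at a gene end within 50 kb, beside 134 clustered regions. These counts per region also depend on how many neighbours there are. Clustered regions had a median of 4, and 2.94% of them had none.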

How the data were processed

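Per the submitters' processing notes the build was mm10. The same notes list MACS2 2.0.10.20131216, HOMER, Picard and Bowtie2 2.2.3 with no role. In the deposited lists of C/EBPα and V5 a peak has only a position and a name. Their names run with gaps, so the peaks kept are about 40% of the highest number (40.01% to 40.07%), and the sources used here do not say how they were picked. The deposited H3K4me2 broad peaks carry a score, a fold over local background, and −log10 p and −log10 q values from the authors' peak caller. These depend on library depth, which the sources used here do not give, so −log10 q was used only as a percentile within its list, and scores and fold were not tested. The other 10 of 21 samples are inputs, not analysed here. Genotypes are as labelled, and loss of Arid1a cannot be checked in peak lists.

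C/EBPα peaks sharing 1 bp were merged (Python 3.11.15, NumPy 2.4.6, pandas 2.3.3), and distances were taken to RefSeq GRCm38.p6 gene ends, with 21900 protein-coding genes and no strand. Of 388 list symbols 387 matched. Shares and means per library were compared with two-sided exact permutation tests, by label for KO against WT and by sign within libraries, at a threshold of 0.05 with Benjamini-Hochberg adjustment within each family. The functions were tested on simulated data. Regions are not replicates. A missing peak means only that none was called or kept. Replicate numbers are shared between genotypes, but they are not shown to pair the libraries. For H3K4me2, correlations of same-numbered deviations were 0.104, 0.280 and 0.0736, and those across numbers ran from -0.248 to 0.152. For C/EBPα they were 0.0208 for both same-numbered pairs and -0.0208 across numbers. With 2 lists per genotype these are the same value by construction. Members and gene lists were chosen with earlier results of these data known. Named genes are the fixed-list genes nearest to a member (30 smallest distances, of which 1 is not reported here), the 10 widest ARID1A peaks, the 5 highest and 5 lowest C/EBPα percentile differences, the 10 members with the mark in WT lists only that rank highest, the 5 largest gaps and those at the limits. Others are said to be chosen after their values were seen, or come with a count. Peak coordinates are mm10 and count from 1. Alternatives changed the isolation distance, the gene-end distance, the ARID1A overlap, the H3K4me2 threshold and list length, and left out each library.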

Additional observations from a re-analysis of the deposited data

How the results depend on the processing

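With isolation distances of 25 kb and 100 kb there were 2027 and 1244 members, and with gene ends at 5 kb 1442. Both comparisons of H3K4me2 shares between classes passed the threshold under these choices and with a stricter ARID1A overlap. Isolated against ARID1A-free regions no longer passed with H3K4me2 peaks at or above the pooled median −log10 q (5.79 points, exact p = 0.0625) or with lists cut to the shortest (3.43 points, exact p = 0.09375). The percentile difference between isolated and clustered regions was 0.0809 (exact sign-flip p = 0.90625) and 0.985 (exact sign-flip p = 0.03125) under these settings. Both were of opposite sign to -1.14. With lists cut to the shortest it thus passed the threshold, before adjustment, with isolated members higher. The cause was not tested. With 1 library left out, 5 libraries allow no p below 0.0625, so no comparison could pass. Differences then ran from -7.46 to -6.01 points for isolated against clustered shares, 8.06 to 9.28 against ARID1A-free regions, -7.02 to -5.62 for flanks, and -18.6 to -14.7 for the members parted by C/EBPα width. KO minus WT ranges were -25.6 to -6.51 points for marked shares, -3.59 to 10.001 for the percentile, -2.48 to 1.35 for flanks, -22.7 to 0.91 for neighbours, and -8.19 to -2.13 for C/EBPα width percentiles. Members losing the mark numbered 22 to 146, highest without KO replicate 2, and those gaining it 0 to 6. With lists cut to the shortest 1 was gained. C/EBPα width in base pairs gave 15.3 bp for the widest peak and 14.0 bp with the peaks of a list summed, of opposite sign to the percentile. For the width sets base pairs gave -24.3 points, and lists cut to the shortest gave a genotype difference of -2.22. The numbers are not shown to pair the libraries, and the replicate block gave exact p = 0.25 for marked shares (-15.2 points), 1 for the percentile (2.65), 0.75 for flanks (-0.79) and 0.5 for neighbours (-10.9). It changed no call. KO replicate 1 correlated best with WT replicate 3 (0.152) and less with WT replicate 1 (0.104). Depth is unknown, so weak peaks missed in short lists cannot be told from absent ones.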
